A study of Homo sapiens with 16 samples.

Results

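Binding of p65 was examined around 7 microRNA or host genes that are tied to NFκB signalling or to the epithelial state, namely MIR146A, MIR3142HG, MIR155HG, MIR21, MIR200B, MIR200A and MIR429. They are 7 of 62062 annotated genes on the chromosomes read and lie in 4 loci, because the windows of neighbouring genes overlap. Around each gene, every 200-bp bin from 30 kb upstream to 10 kb downstream was read on GRCh38. A bin was listed when the mean p65 signal of a ChIP group was at least 2 and at least 4 times the input of the same line and construct. Of the 1125 bins in these windows, 20 were listed, and neighbouring listed bins were joined into 8 sites. The bins were thus chosen by their group mean signal and its ratio to input, so the enrichment of these bins is a description and was not tested. The genes, and the site upstream of MIR200B, were chosen with results of these data known.

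The libraries were 12 p65 ChIP-Seq and 4 input libraries from HT29 and SW480, established human lines of colon adenocarcinoma. Each line carried an empty vector (mock) or a stably integrated construct for estrogen receptor beta (ERβ). This made 4 ChIP groups of 3 libraries, HT29 mock, HT29 ERβ, SW480 mock and SW480 ERβ, each with 1 input. All cells, mock included, had been given TNFα at 30 ng/ml for 30 min before cross-linking with disuccinimidyl glutarate and formaldehyde, and libraries without TNFα were not analysed here. Per the methods, no estradiol was given, and the cells were moved to medium with charcoal-stripped serum before ChIP. The methods call the replicates biological. The p-values rest on the spread between libraries, estimated mainly over many bins of similar signal and not from a single bin. Values are tag densities, the deposited coverage averaged over a bin. The tracks had been scaled to nearly equal totals, so the number of reads behind a value is unknown.

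NFκB is a dimeric transcription factor, and p65 (RELA) is a subunit with a strong activation domain. After TNFα, p65 enters the nucleus and binds κB sites, and some of the genes it reaches encode microRNAs that feed back on the pathway. miR-146a lowers IRAK1 and TRAF6, signalling proteins upstream of NFκB, and is cut from the long RNA MIR3142HG. miR-155 is cut from MIR155HG, lowers SOCS1 and INPP5D and is best known from activated immune cells. miR-21 lowers PDCD4, a tumour suppressor, and is abundant in colorectal tumours. miR-200b, miR-200a and miR-429 lie in a cluster, repress ZEB1 and ZEB2, and help to keep epithelial cells epithelial.

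The main mature microRNAs of the members are shown because their seeds divide them into groups that the gene symbols do not show. They are RefSeq sequences on GRCh38.p14, 5′ to 3′, with the seed (bases 2 to 8) in capitals. miR-200b-3p and miR-429 have the same seed, whereas those of the other 4 all differ.
miR-200b-3p: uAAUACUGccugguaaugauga
miR-429: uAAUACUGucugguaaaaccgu
miR-200a-3p: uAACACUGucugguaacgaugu
miR-146a-5p: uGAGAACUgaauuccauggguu
miR-155-5p: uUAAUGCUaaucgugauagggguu
miR-21-5p: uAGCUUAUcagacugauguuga

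The DNA under 1 site of each of 3 loci is shown next, because these are the sites nearest to the genes among those listed in 3 or 4 groups. Each line is the leading bin of a site, the listed bin with the highest mean over the 12 ChIP libraries, on the plus strand of GRCh38. Exact matches to the κB consensus or to AP-1 (TGANTCA) are in capitals. The first lies 450 bp upstream of the RefSeq start of MIR3142HG, the second 2.10 kb upstream of MIR200B and the third 5.13 kb downstream of the start of MIR21.
MIR3142HG promoter, chr5:160467701-160467900: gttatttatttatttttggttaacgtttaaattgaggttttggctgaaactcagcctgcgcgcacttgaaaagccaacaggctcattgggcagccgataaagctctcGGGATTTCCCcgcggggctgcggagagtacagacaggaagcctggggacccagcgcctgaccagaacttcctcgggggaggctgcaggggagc
MIR200 upstream, chr1:1164901-1165100: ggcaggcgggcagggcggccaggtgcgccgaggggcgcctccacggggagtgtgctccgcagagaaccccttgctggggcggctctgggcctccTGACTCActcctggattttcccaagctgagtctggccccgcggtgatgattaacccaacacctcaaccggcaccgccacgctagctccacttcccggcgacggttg
MIR21 downstream, chr17:59846301-59846500: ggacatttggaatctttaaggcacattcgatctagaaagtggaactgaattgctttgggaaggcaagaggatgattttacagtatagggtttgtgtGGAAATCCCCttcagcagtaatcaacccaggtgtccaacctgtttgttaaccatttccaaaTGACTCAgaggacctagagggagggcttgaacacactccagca

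Matches to the κB consensus, AP-1 and the estrogen response element were searched on both strands without mismatches. The MIR3142HG promoter bin and the MIR21 bin each held a κB match, and the MIR21 bin also held an AP-1 match. The MIR200 upstream bin held an AP-1 match and no κB match. Of the 20 listed bins, 9 held a κB match, 3 an AP-1 match and none an estrogen response element. Among the 25626 bins of the genome that were tested for differences, 31.9% held a κB match, 11.8% an AP-1 match and 0.0273% an estrogen response element. Among the 12070 of them that were listed by the same limits, the shares were 39.1%, 12.5% and 0.0497%. Among every 50th bin of chromosomes 1, 5, 17 and 21 these shares were 3.12%, 6.10% and 0.00561%. A match is a string of letters and was not shown to be bound.

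**Figure D1:**
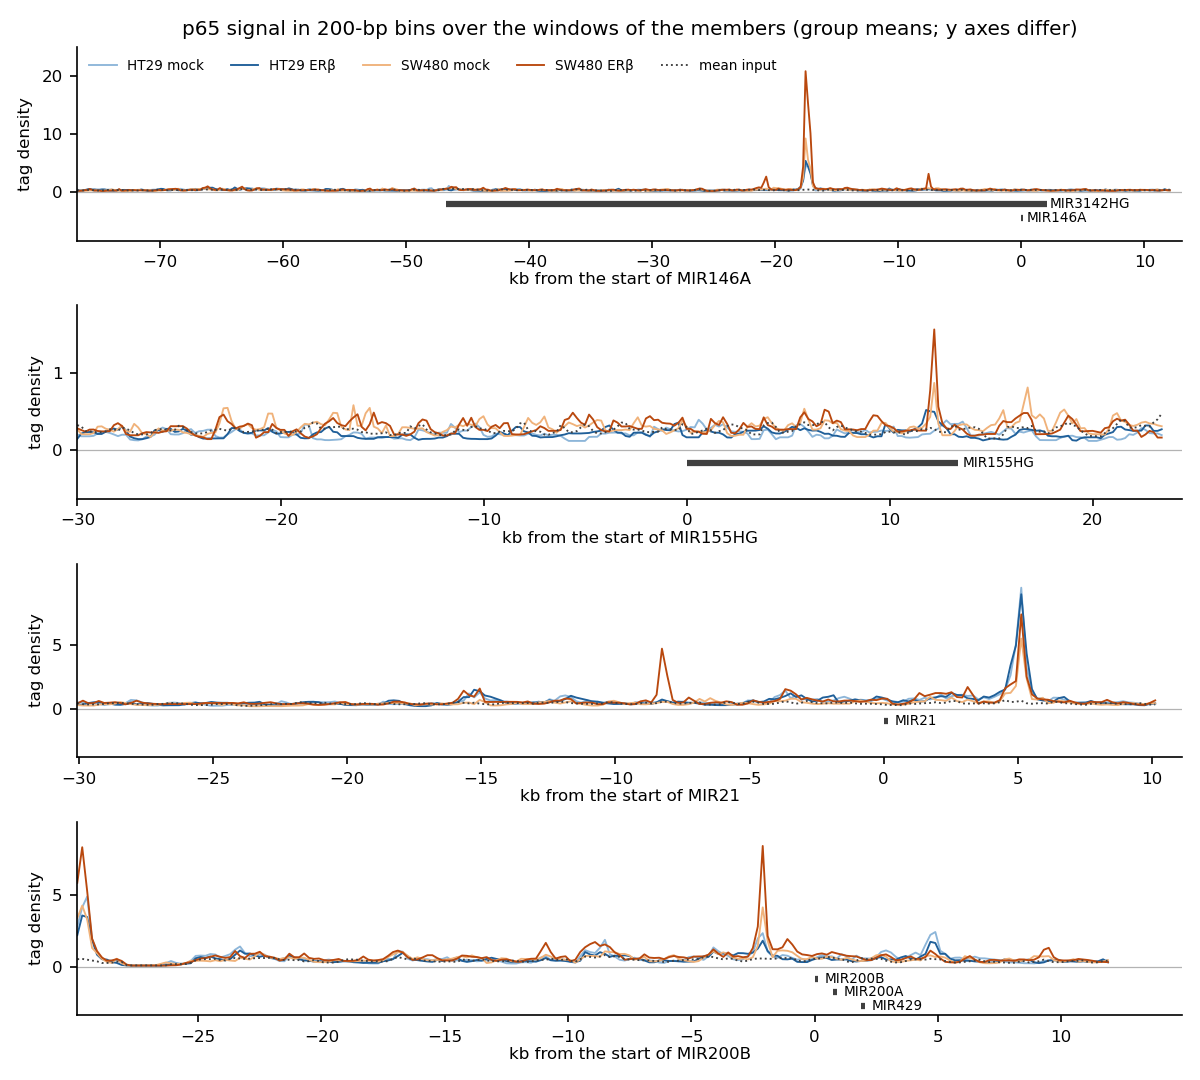
Group mean tag density in 200-bp bins (y axis) against distance in kb from the start of the microRNA or host gene (x axis) for the 4 loci, with the mean input dotted. The MIR3142HG-MIR146A, MIR21 and MIR200 windows hold narrow peaks, the highest reaching 20.9 in SW480 ERβ, while no group mean in the MIR155HG window reached 2.

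The windows of 3 loci held listed bins, and that of MIR155HG held none. HT29 mock had 13 listed bins, HT29 ERβ 10, SW480 mock 10 and SW480 ERβ 17. Over all bins of the genome the same limits listed 0.0398%, 0.0267%, 0.00988% and 0.0635% in that order, and nothing is read from these shares. Over the 1877 annotated microRNA genes, 18.3% had a listed bin in the same range in any group, and 11.0%, 7.88%, 4.10% and 16.4% in the 4 groups in the same order. Of the 20 bins, 8 were listed in all 4 groups, 3 in 3 groups and 9 in 1 group alone, of which 6 were listed in SW480 ERβ, 2 in HT29 mock and 1 in HT29 ERβ. A bin that entered through 1 group had to be high there, so the leading bins of sites listed in 1 group are given by their values, with no test of their own. Near the limit of 2, the bin chr5:160467501-160467700 was just inside in HT29 mock with a mean of 2.06, 6.24 times input, and just outside in HT29 ERβ with 1.999, 5.58 times input, which alone kept it from being listed in all 4 groups. Outside the listed bins, the mean in SW480 ERβ was 0.420 in the MIR3142HG-MIR146A window, 0.306 at MIR155HG, 0.567 at MIR21 and 0.670 at the MIR200 locus. The SW480 ERβ input over all bins of these windows, listed bins included, was 0.358, 0.306, 0.368 and 0.395 in the same order.

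At the MIR3142HG-MIR146A locus on chromosome 5, the host gene promoter carried the highest p65 signal of the members in SW480. In HT29 the highest signal was that of the MIR21 locus, whose highest bin had a mean of 9.49 in mock and 8.98 in ERβ cells, against 4.70 and 5.41 here. The site, chr5:160467501-160468300, lies 17.6 kb upstream of the miR-146a hairpin, in the promoter of a shorter MIR3142HG transcript and in an intron of a longer one. At its leading bin the tag densities were 5.73, 3.01 and 4.34 in HT29 mock and 6.08, 5.28 and 4.87 in HT29 ERβ. They were 7.67, 9.47 and 10.7 in SW480 mock and 15.6, 23.7 and 23.3 in SW480 ERβ. All SW480 libraries were above all HT29 libraries, and the SW480 ERβ libraries were above every SW480 mock library. The inputs lay between 0.346 and 0.530.

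In SW480, the mean of ERβ cells at this bin was 2.25 times that of mock cells, a log2 difference of 1.08 (SE 0.34, adjusted p = 0.0146) on the log2(signal + 1) scale, by limma. The call was lost without SW480 mock replicate 1 (adjusted p = 0.136), SW480 mock replicate 2 (0.0827) or SW480 ERβ replicate 3 (0.116). In HT29 the difference was 0.29 (SE 0.49, 95% interval -0.67 to 1.24, adjusted p = 1). The ERβ effect differed between the lines by 0.79 (SE 0.54, adjusted p = 0.303), and with the replicate number as a block this passed the threshold (adjusted p = 0.0281). SW480 was higher than HT29 in ERβ cells by 1.75 (SE 0.46, adjusted p = 0.000863), a call lost with the replicate number as a block. In mock cells SW480 was higher by 0.96 (SE 0.36, adjusted p = 0.0268). This call was lost without HT29 mock replicate 2 (adjusted p = 0.123) or 3 (0.0714) and without SW480 mock replicate 1 (0.0711), 2 (0.135) or 3 (0.151). It was also lost with the replicate number as a block, and with the bins moved by 100 bp, where the difference was 0.65.

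The neighbouring bins of the promoter, listed in all 4 groups, showed the same order of group means in SW480. The bin starting at 160467901 had 5.61 ± 1.62 in SW480 mock and 15.4 ± 4.51 in SW480 ERβ, and the bin starting at 160468101 had 4.07 ± 1.42 and 10.2 ± 2.66 (SD, n = 3). The mean profile of the 12 libraries peaked at position 160467822, 10 bp from the centre of the κB match printed above. In HT29 mock the highest point was further downstream, at 160468066. A second κB match lies in the 300-bp RefSeq promoter of MIR3142HG, a window in which 9.43% of 35115 promoters hold such a match, and it is shown with its flanks because it is the promoter's own match.
MIR3142HG second match, chr5:160468121-160468150: ggatctagaaGGGACTTTCCagagagggtt

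**Figure D2:**
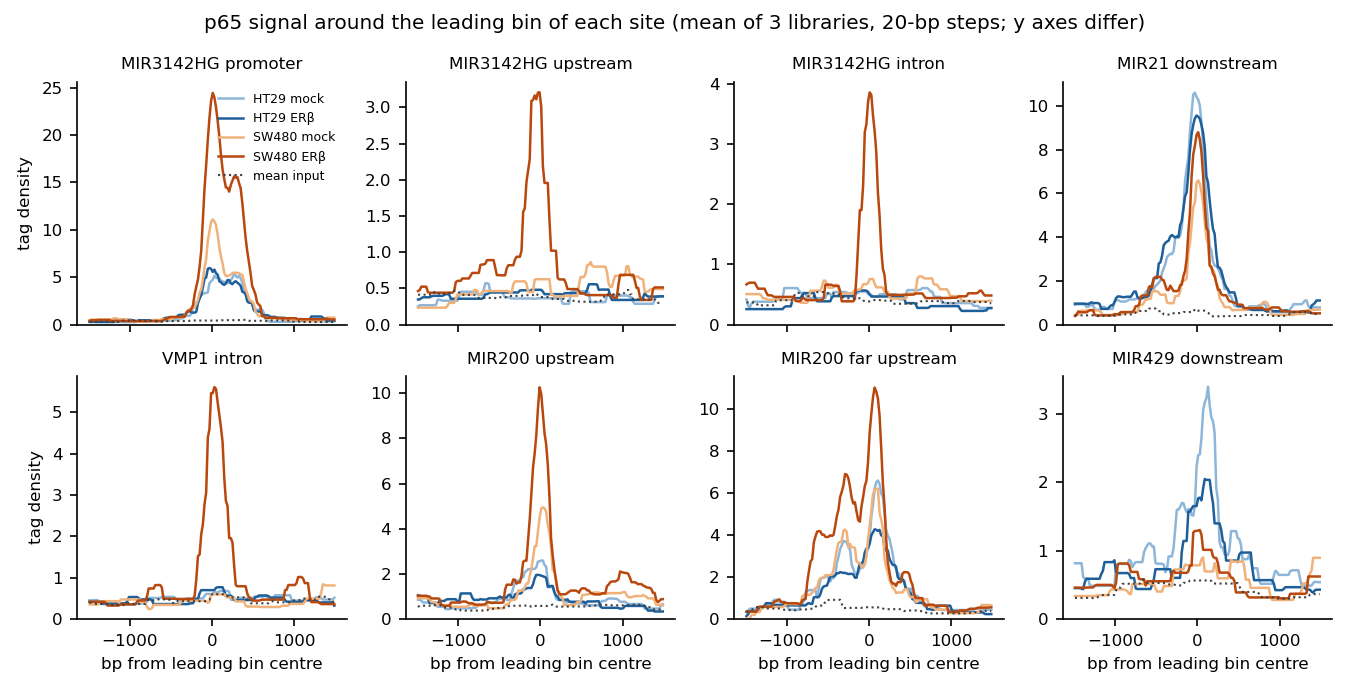
Group mean tag density in 20-bp steps (y axis, scaled for each panel) against distance in bp from the centre of the leading bin (x axis) at the 8 sites, with the mean input dotted. The highest profile is that of SW480 ERβ at the MIR3142HG promoter, and at the VMP1 intron site only SW480 ERβ had a mean of 2 or more in the leading bin.

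A weaker site on each side of the promoter was listed through SW480 ERβ alone. The bin chr5:160464501-160464700, 3.65 kb upstream of the RefSeq start, had tag densities of 3.46, 2.14 and 2.46 in SW480 ERβ and between 0.280 and 1.02 in the other 9 libraries. The bin chr5:160477701-160477900, in an intron and 7.55 kb upstream of the miR-146a hairpin, had 1.42, 4.13 and 3.96 in SW480 ERβ and between 0.227 and 0.791 in the others. In both bins every SW480 ERβ library was above the other 9, and the SW480 ERβ inputs were 0.406 and 0.340. Each bin had 1 κB stretch, 38 and 8 bp from the peak, and these are shown because they are what the weak sites share with the promoter.
MIR3142HG upstream, chr5:160464535-160464564: tgtctatttgGGGAATTTCCtgagtttaag
MIR3142HG intron, chr5:160477798-160477827: ggggaggcttGGAATTTCCCcagctgaact

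Over the miR-146a hairpin itself the mean tag densities in HT29 mock, HT29 ERβ, SW480 mock and SW480 ERβ were 0.503 ± 0.0891, 0.289 ± 0.0612, 0.399 ± 0.105 and 0.421 ± 0.121 (SD, n = 3), and the inputs ranged from 0.300 to 0.480.

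MIR155HG on chromosome 21 had no listed bin in any group. From 1000 bp upstream to 100 bp downstream of its RefSeq start, the mean tag densities were 0.269 ± 0.121, 0.235 ± 0.0502, 0.290 ± 0.122 and 0.322 ± 0.0481 (SD, n = 3) in the same order of groups, and the inputs ranged from 0.207 to 0.341. The promoter was thus near the level of input. Its 300-bp RefSeq window held no κB match and 1 AP-1 match, which 7.71% of promoters hold.

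The bin with the highest signal in the MIR155HG window, chr21:25573901-25574100, covers the miR-155 hairpin. Its tag densities were 0.280, 0.264 and 0.225 in HT29 mock, 0.510, 0.340 and 0.650 in HT29 ERβ, 1.26, 0.705 and 0.660 in SW480 mock and 1.56, 1.54 and 1.60 in SW480 ERβ. The SW480 ERβ libraries were above all others, and HT29 mock lay below all others. The inputs ran in the same order of groups, at 0.156, 0.240, 0.287 and 0.420, and their part in the difference was not tested. The bin was chosen for its height after its values were seen, so no test is given.

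At MIR21 on chromosome 17 the main site lay downstream of the gene, between genes, at chr17:59845901-59846700, and was present in both lines. At its leading bin the tag densities were 14.7, 7.89 and 5.92 in HT29 mock and 15.1, 5.64 and 6.17 in HT29 ERβ. They were 6.58, 5.55 and 4.38 in SW480 mock and 4.95, 10.2 and 7.09 in SW480 ERβ. Replicate 1 of both HT29 groups was far above replicates 2 and 3, and the 4 groups overlapped. The inputs lay between 0.370 and 0.854.

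The ERβ difference at this bin was -0.11 (SE 0.50, 95% interval -1.09 to 0.87, adjusted p = 1) in HT29 and 0.34 (SE 0.32, 95% interval -0.30 to 0.98, adjusted p = 0.406) in SW480. Without SW480 ERβ replicate 1 the SW480 value was 0.56 and passed the threshold (adjusted p = 0.0445). SW480 minus HT29 was -0.62 (SE 0.36, adjusted p = 0.171) in mock cells. This became -0.28 (adjusted p = 0.332) without HT29 mock replicate 1, and with the bins moved by 100 bp it was -0.87 and passed the threshold (adjusted p = 0.0470). It was -0.17 (SE 0.45, adjusted p = 0.801) in ERβ cells, and the ERβ effects differed by 0.45 (SE 0.56, adjusted p = 0.571). The neighbouring bin chr17:59846101-59846300 was lower in SW480 mock than in HT29 mock, at 1.78 ± 0.377 against 5.05 ± 3.05 (SD, n = 3), a log2 difference of -1.02 (SE 0.34, adjusted p = 0.0120). This call was lost without SW480 mock replicate 1 (adjusted p = 0.109) or 2 (0.0792), with the replicate number as a block (0.0509) and when all bins of 4 chromosomes were tested (0.438).

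The mean profile at MIR21 peaked 12 bp from the centre of the κB match and 72 bp from that of the AP-1 match printed above. Over the MIR21 hairpin the mean tag densities in HT29 mock, HT29 ERβ, SW480 mock and SW480 ERβ were 0.704 ± 0.410, 0.814 ± 0.189, 0.508 ± 0.284 and 0.786 ± 0.0826 (SD, n = 3), against inputs of 0.271 to 0.360.

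A second MIR21 site lay in an intron of the host gene VMP1, which encodes a membrane protein of autophagy, 8.27 kb upstream of MIR21, and was listed through SW480 ERβ alone. Its leading bin, chr17:59832901-59833100, had tag densities of 3.70, 6.41 and 4.03 in SW480 ERβ and between 0.276 and 1.04 in the other 9 libraries, against inputs of 0.478 to 0.579. The SW480 ERβ mean was 8.94 times the SW480 mock mean, and every SW480 ERβ library was above the other 9. This site held no κB, AP-1 or estrogen response element match.

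**Figure D3:**
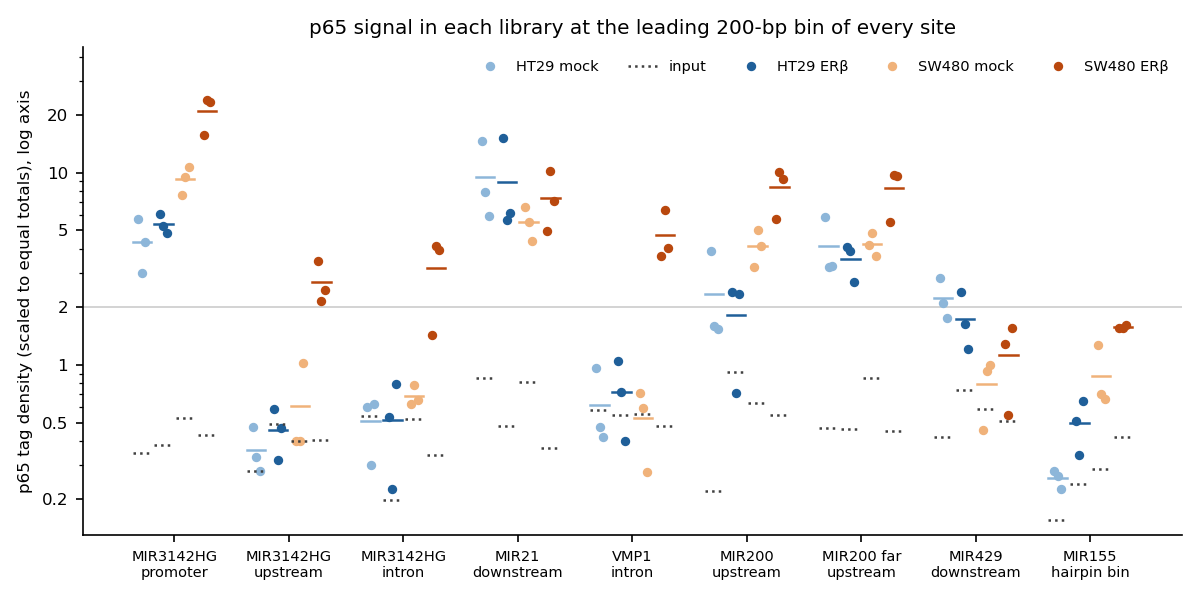
Tag density of each library (points), group mean (solid bar) and matched input (dotted bar) on a log axis at the leading bin of the 8 sites and at the bin over the miR-155 hairpin. The grey line marks the listing minimum of 2. The MIR3142HG promoter reaches 23.7 in SW480 ERβ, while the miR-155 bin stays below 2 in every library.

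The MIR200B-MIR200A-MIR429 locus on chromosome 1 held 3 sites. The upstream site, chr1:1164701-1165300, lies between genes, 2.10 kb upstream of MIR200B, 2.86 kb upstream of MIR200A and 4004 bp upstream of MIR429. At its leading bin the tag densities were 3.89, 1.58 and 1.54 in HT29 mock and 2.39, 0.716 and 2.34 in HT29 ERβ. They were 3.23, 5.01 and 4.13 in SW480 mock and 5.75, 10.1 and 9.30 in SW480 ERβ. The SW480 ERβ libraries were above all others, and the HT29 groups overlapped. The inputs were 0.220, 0.918, 0.630 and 0.550 in the same order, and the HT29 ERβ mean of 1.81 met neither limit for listing.

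The MIR200 upstream site was chosen with results of these data known, and the p-values here do not allow for that choice. In SW480 the ERβ mean at this bin was 2.03 times the mock mean, a log2 difference of 0.85 (SE 0.32, adjusted p = 0.0383). The call held in 8 of 17 alternatives, and it was lost without SW480 mock replicate 1 (adjusted p = 0.203), 2 (0.0824) or 3 (0.0876) and without SW480 ERβ replicate 2 (0.151) or 3 (0.176), and with the bins moved by 100 bp (0.186). In HT29 the difference was -0.24 (SE 0.38, 95% interval -0.99 to 0.50, adjusted p = 1). The ERβ effect differed between the lines by 1.10 (SE 0.52, adjusted p = 0.163), with an adjusted p of 0.00319 under the replicate block. SW480 was higher than HT29 in ERβ cells by 1.77 (SE 0.42, adjusted p = 0.000210). In mock cells the difference was 0.67 (SE 0.34, adjusted p = 0.112), and it became 0.98 (adjusted p = 0.00201) without HT29 mock replicate 1.

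The mean profile of the MIR200 upstream site was 260 bp wide at 0.5 of its height, and its peak was 10 bp from the centre of the AP-1 match. Over the hairpins the SW480 ERβ signal was 0.848 ± 0.108 at MIR200B, 1.12 ± 0.233 at MIR200A and 0.542 ± 0.101 at MIR429 (SD, n = 3), where its inputs were 0.616, 0.574 and 0.680.

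The far upstream site, chr1:1137101-1137700, lies at the outer edge of the window, 29.7 kb upstream of MIR200B, in an intron of the long noncoding gene LINC01342 and 383 bp from its start. All 3 of its bins were listed in all 4 groups. At the leading bin the tag densities were 5.87, 3.24 and 3.27 in HT29 mock and 4.10, 3.89 and 2.69 in HT29 ERβ. They were 4.20, 4.87 and 3.66 in SW480 mock and 5.51, 9.74 and 9.60 in SW480 ERβ. The SW480 ERβ libraries lay above those of SW480 mock, and the other 3 groups overlapped. ERβ minus mock was 0.79 (SE 0.32, adjusted p = 0.0520) in SW480, which passed the threshold with the replicate block (adjusted p = 0.0102) and without SW480 ERβ replicate 1 (0.000411). In HT29 it was -0.15 (SE 0.47, 95% interval -1.06 to 0.77, adjusted p = 1). The ERβ effects differed by 0.94 (SE 0.53, adjusted p = 0.230), or with an adjusted p of 0.0111 under the block. SW480 minus HT29 was 0.06 (SE 0.36, adjusted p = 0.907) in mock cells. In ERβ cells it was 1.00 (SE 0.44, adjusted p = 0.0602), and it passed the threshold without HT29 ERβ replicate 1 (adjusted p = 0.0154) or SW480 ERβ replicate 1 (0.0200).

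The third site, chr1:1171701-1172100, 2.80 kb downstream of the start of MIR429, was listed in HT29 mock alone. Its leading bin had 2.83, 2.08 and 1.75 in HT29 mock and 2.38, 1.62 and 1.21 in HT29 ERβ. It had 0.460, 0.933 and 1.00 in SW480 mock and 1.29, 0.548 and 1.54 in SW480 ERβ. HT29 mock lay above both SW480 groups and overlapped HT29 ERβ. Each HT29 ERβ library was below the HT29 mock library of the same number, but pairing by numbers 2 and 3 was not shown in HT29. The bin was chosen by its HT29 mock signal.

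Shifts that ran through whole libraries moved with these comparisons. Over the 25626 tested bins, whose mean was at least 0.75 and at least 2 times the mean input, the median log2 difference between ERβ and mock was 0.43 in SW480 and -0.11 in HT29. Replicate 1 of HT29 mock and HT29 ERβ stood apart, with median log2 values of 1.60 and 1.46 against 0.985 to 1.11 in the other HT29 libraries. SW480 ERβ replicate 1 had 1.15 against 1.57 and 1.54 in replicates 2 and 3. With each library centred on its median, the SW480 difference between ERβ and mock was 0.60 (adjusted p = 0.0487) at the MIR3142HG promoter, 0.37 (adjusted p = 0.291) at the MIR200 upstream bin, 0.32 (adjusted p = 0.391) at the far upstream bin and -0.14 (adjusted p = 0.739) at the MIR21 downstream bin. Of these 4 bins the MIR3142HG promoter alone passed the threshold. At the same 4 bins, centring added 2 calls between the lines, that of the MIR200 upstream bin in mock cells, 0.99 (adjusted p = 0.000115), and that of the far upstream bin in ERβ cells, 0.73 (adjusted p = 0.00942).

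Of the 20 listed bins, 19 were tested, 8 of them listed in 1 group alone and 11 in 3 or 4 groups. In HT29, limma called none of the 19 for ERβ against mock and none had an unadjusted p under 0.05. Over all tested bins it called 0.00390%, which is 1 bin that was lower, and 396 bins had an unadjusted p under 0.05. In SW480, limma called 7 of 19 higher in ERβ and none lower, against 27.2% higher and 0.0195% lower over all tested bins. Of those 7, 3 had been listed in 1 group alone, and 4 were among the 11 bins listed in 3 or 4 groups. At a minimum mean of 1.5, limma called 6 of 15 higher, 5 of them among the same 11 bins, against 4141 of 10601 bins. Among these 11, the number called higher was 7 with the replicate block, 0 without SW480 mock replicate 1, 1 without SW480 mock replicate 2, 1 without SW480 ERβ replicate 3 and 9 without SW480 ERβ replicate 1. Over the 25626 tested bins these fits called 10476, 2850, 3292, 3209 and 14667 higher, in that order. With centred libraries 3 of the 11 were higher and none lower, while over all bins 6960 higher and 5 lower became 1277 higher and 867 lower (4.98% and 3.38%). The median SW480 difference over the 11 bins was 0.61, against 0.43 over all tested bins, and with centred libraries it was 0.13 against -0.05. At a minimum mean of 1.5, where the weaker bins are left out, it was 0.61 against 0.57 over 10601 bins.

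Between the lines, in mock cells, 1 of the 19 bins was called higher and 3 lower in SW480, against 7.78% and 27.6% of all tested bins. Among the 11 bins listed in 3 or 4 groups, 1 was higher and 1 lower. With centred libraries 5 of the 11 were higher and 1 lower, against 22.1% and 19.4%. Of the 11, none was called with the replicate block, without SW480 mock replicate 1 or without SW480 mock replicate 2. Over all tested bins these fits called 1535, 1659 and 1462 higher and 5539, 4203 and 4419 lower. The higher call was also lost without SW480 mock replicate 3, HT29 mock replicate 2 or HT29 mock replicate 3, and 2 were higher without HT29 mock replicate 1. Over all tested bins 1463, 1401, 1292 and 2942 were called higher there, in that order. In ERβ cells 9 of the 19 were called higher and none lower, against 26.5% and 9.35%, and 5 of the 11 were higher. With centred libraries 7 of the 11 were higher and 2 lower, against 24.3% and 23.1%. The number of the 11 called higher fell to 1 with the replicate block and to 3 without replicate 2 or 3 of HT29 ERβ or of SW480 ERβ, each left out by itself. Over all tested bins the block called 4274 higher, and leaving out these libraries called 4487 to 4560. The ERβ effect differed between the lines at 3 of the 19 bins, against 6.42% of all tested bins. All 3 had been listed in 1 group alone, so that none of the 11 was called. With centred libraries none of the 11 was called either, against 1.03% higher and 0.144% lower over all tested bins. Of the 11, 7 were called with the replicate block, 4 with signal divided by the input ratio, 2 with input subtracted, 2 without HT29 ERβ replicate 1 and 2 without SW480 ERβ replicate 1. Over the 25626 tested bins these fits called 10333, 5702, 6162, 6271 and 4912 higher, in that order. The comparisons share libraries.

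Of the 11 bins listed in 3 or 4 groups, the SW480 ERβ libraries lay above all SW480 mock libraries at 6, against 40.2% of the tested bins of the genome. In HT29 the ERβ and mock libraries overlapped at all 20 listed bins, and a gap was seen upwards at 1.00% and downwards at 3.47% of the tested bins. Between the lines, the SW480 libraries lay above all HT29 libraries at 1 of the 11 and below them at 1 in mock cells, against 11.5% and 35.2%. In ERβ cells they lay above at 7 of the 11 and below at 1, against 30.6% and 12.3%.

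**Figure D4:**
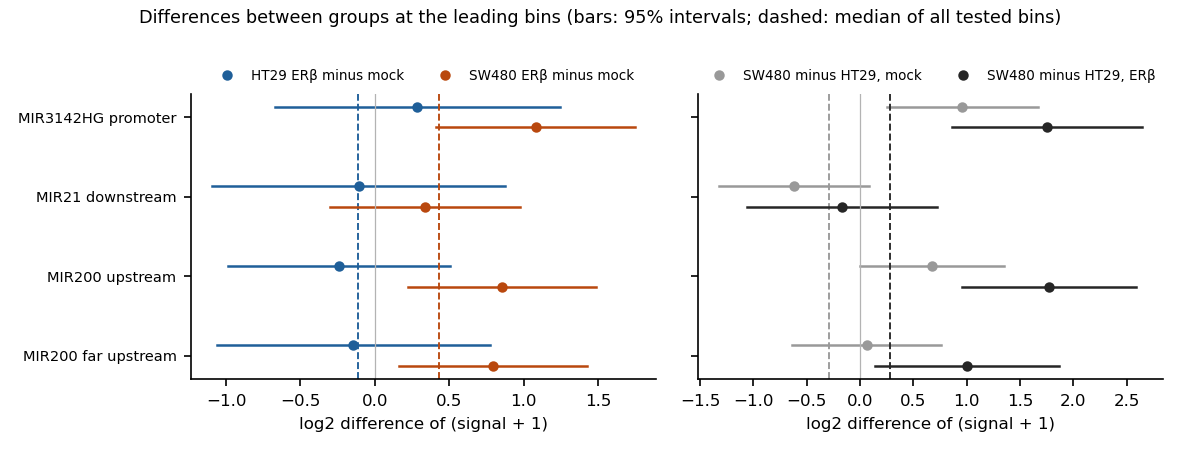
Log2 differences of signal + 1 (x axis) with 95% intervals at the leading bins of the 4 sites listed in 3 or 4 groups, for ERβ against mock in each line (left) and SW480 against HT29 in each construct (right), with the median of all tested bins dashed. At these 4 bins the intervals for HT29 all include 0, and the value at the MIR3142HG promoter is 1.08 in SW480.

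The coding exons of ESR2, the gene of ERβ, had 1.12 to 1.62 times the signal of its introns in the 6 mock ChIP libraries and 2.48 to 7.79 times in the 6 ERβ ChIP libraries. Over 50 kb around the listed bins, each input was 0.821 to 1.19 times the mean of the 4 inputs, with HT29 mock lowest and SW480 mock highest at the MIR200 locus. Dividing by these ratios changed the SW480 difference to 1.16 at the MIR200 upstream bin and 1.15 at the far upstream bin, both called. The difference between the ERβ effects was then 1.70 (adjusted p = 0.0184) and 1.57 (adjusted p = 0.0303) at these bins, both called as well. With these ratios, 10759 of the 25626 tested bins were called higher in SW480 ERβ, and 5702 for the difference between ERβ effects.

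Promoters whose p65 signal followed that of a locus over the 12 ChIP libraries were sought among 3018 protein-coding genes with a tested promoter bin. For the MIR3142HG promoter the highest Pearson correlations were with GAS6 (0.980), a ligand of TAM receptor kinases, FSCN1 (0.974), an actin-bundling protein, and NODAL (0.972), a TGF-β family ligand. For the MIR21 downstream bin they were with SORL1 (0.935), a sorting receptor, H2AC21 (0.933), a histone gene, and FAM174B (0.928). For the MIR200 far upstream bin the highest was with YDJC (0.977). The points share libraries and scaling, and the median correlation over all 3018 genes was 0.484, 0.539 and 0.664 for these bins.

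Other genes of the microRNA pathway were read with the same limits, from a list of 48 genes. Of these, 20 had a listed bin, 11 in HT29 mock, 10 in HT29 ERβ, 7 in SW480 mock and 20 in SW480 ERβ, and several share bins with a neighbour. Over protein-coding genes 31.6% had a listed bin in any group, and the shares in the same order of groups were 18.5%, 13.4%, 6.35% and 27.4%. The list mixes microRNA genes, long hosts and coding genes, whose windows differ in size, so these shares are not like for like. At the leading bins, 9 of the 20 genes were called higher in SW480 ERβ than in SW480 mock and none lower, against 27.2% and 0.0195% of all tested bins. Of these genes, 4 (MIR29A, MIR100HG, MIR4435-2HG and DGCR8) had bins listed in SW480 ERβ alone and had to be high there, and the other 5 (MIR23AHG, MIR24-2, MIR27A, MIRLET7BHG and AGO2) hold 3 separate bins. At a minimum mean of 1.5, 4141 of 10601 tested bins were called higher in SW480 ERβ than in SW480 mock. None of the 20 genes was called in HT29. In mock cells, 3 were called higher in SW480 than in HT29, against 7.78%, and all 3 had bins listed in SW480 ERβ alone. There, 4 genes with 2 separate bins were lower, against 27.6%. In ERβ cells 8 genes with 7 separate bins were called higher, 7 of them with bins listed in SW480 ERβ alone, and none lower, against 26.5% and 9.35%. The ERβ effect differed between the lines at 4 of the 20, which hold 2 separate bins, against 6.42%. The calls at genes of this list come from the main fit alone, with no centring of libraries and no library left out.

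Among the microRNA genes and hosts, 12 of 30 had a listed bin, and these 12 held 8 separate leading bins. Over all annotated microRNA genes 18.3% had a listed bin. The 30 include long hosts with wider windows, such as MIR100HG with 2843 bins against 202 at MIR200C, so the shares are not like for like. MIR200C and MIR141, the other miR-200 cluster, shared a leading bin 19.9 kb upstream of MIR200C, with means in HT29 mock, HT29 ERβ, SW480 mock and SW480 ERβ of 3.45 ± 1.98, 3.85 ± 1.56, 3.07 ± 0.744 and 5.55 ± 2.23 (SD, n = 3), and no comparison there passed the threshold. MIR34A and its host MIR34AHG, known as p53 targets, had 2.67 ± 1.40, 2.24 ± 1.28, 2.55 ± 0.452 and 4.06 ± 0.522 in the same order, with no call at this bin, while 1 of the other listed bins in their windows was called higher in SW480 ERβ. MIR23AHG, MIR24-2 and MIR27A, a cluster on chromosome 19, had 11 listed bins in HT29 mock, 7 in HT29 ERβ, 1 in SW480 mock and 18 in SW480 ERβ. Their leading bin, 19.1 kb upstream of MIR23AHG, had 5.87 ± 1.49, 3.93 ± 1.01, 1.93 ± 0.459 and 8.32 ± 1.45. The difference between ERβ and mock was 1.67 in SW480 (adjusted p = 6.27e-05). Between SW480 and HT29 mock it was -1.22 (adjusted p = 0.00307), and the ERβ effects differed by 2.14 (adjusted p = 0.00783). MIRLET7BHG, the host of let-7b, had 4.48 ± 1.51, 4.47 ± 3.49, 2.78 ± 2.05 and 11.3 ± 1.94 at an intragenic bin 51.9 kb downstream of its start. Its SW480 difference was 1.83 (adjusted p = 5.84e-05). In ERβ cells SW480 was higher there than HT29 by 1.33 (adjusted p = 0.0122), and the ERβ effects differed by 1.97 (adjusted p = 0.0225). MIR31HG, MIR29A, MIR100HG and MIR4435-2HG had bins listed in SW480 ERβ alone, with SW480 ERβ means at the leading bin of 2.28 ± 1.18, 2.41 ± 1.09, 3.98 ± 1.75 and 4.23 ± 1.03. In SW480 mock the means in the same order of genes were 1.97, 0.93, 1.80 and 1.61. In HT29 mock they were 0.764, 1.92, 1.02 and 0.439, and in HT29 ERβ 0.765, 2.20, 0.826 and 0.531. These leading bins lie 98.3, 50.9 and 452 kb into MIR31HG, MIR100HG and MIR4435-2HG, and 10.6 kb upstream of MIR29A.

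Of the biogenesis and effector genes, 5 of 9 had a listed bin. AGO2, the Argonaute that cleaves its targets, had means at an intragenic bin of 7.93 ± 1.90, 7.57 ± 1.90, 1.70 ± 0.411 and 3.79 ± 1.44 (SD, n = 3), and was lower in SW480 mock than in HT29 mock, with a log2 difference of -1.71 (adjusted p = 2.88e-05), and higher in SW480 ERβ than in SW480 mock, with 0.79 (adjusted p = 0.0349). XPO5, which exports precursor hairpins from the nucleus, had 3.32 ± 1.01, 3.12 ± 1.00, 1.68 ± 0.396 and 2.82 ± 1.05. Its bin lies 59.4 kb downstream of its start, past the end of the gene. DGCR8, the partner of DROSHA, had a promoter bin listed in SW480 ERβ alone with a mean of 2.84 ± 0.606, and AGO1 and AGO3 shared a bin listed in SW480 ERβ alone, 483 bp downstream of the start of AGO3, with 3.09 ± 1.17. In HT29 mock, HT29 ERβ and SW480 mock the means were 1.74, 1.94 and 1.25 at DGCR8. At the shared bin they were 1.37, 1.22 and 1.53. DROSHA, DICER1, TARBP2 and AGO4 had none. Of the targets, ZEB2 had a bin listed in SW480 ERβ alone, 156 kb downstream of its start and near its 3′ end, with a mean of 3.05 ± 1.93. Its means in HT29 mock, HT29 ERβ and SW480 mock were 0.576, 0.780 and 1.56. IRAK1, TRAF6, SOCS1, INPP5D, PDCD4 and ZEB1 had none. VMP1, the host of MIR21, shared the MIR21 downstream site.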

How the data were processed

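The 16 libraries were p65 ChIP and input DNA from HT29 and SW480 cells. The deposited tracks hold signal, that is tag density per base, which the authors made by alignment to hg38 with STAR and track building with HOMER, per the methods and the submitters' processing notes. The tracks had nearly equal total areas, so depth cannot be read from them. Each SD is the spread between replicates at the bin or region itself. Each SE, interval and p-value uses a variance that limma drew mainly from the trend over all bins in the fit. Counting error was not assessed. The methods also list inputs of the ERβ cells under another deposit, and whether those are the libraries used here is not given in the sources used here. Signal was averaged over 200-bp bins, and log2(signal + 1) was compared with limma 3.58.1 in R 4.3.3 (variance trend on, p-values adjusted by Benjamini-Hochberg) over 25626 bins whose mean over the 12 ChIP libraries was at least 0.75 and at least 2 times the mean input. Each fit held the libraries compared, and the difference between ERβ effects used all 12. Calls were made at an adjusted p below 0.05. A count test, as used in the study, could not be run on densities. The code was tested on simulated data.

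Genes were taken from GENCODE 44, microRNA and promoter sequences from RefSeq and bin sequences from the GRCh38 genome. Members and lists were chosen with earlier results of these data known. The genes named are all members, every site by its leading bin, the 3 promoters with the highest correlation to the leading bin of each locus, and genes of the 48-gene list with a listed bin, with the genes without one named for the effectors and targets. Some genes that this rule names are not reported here. Replicate numbers were checked for pairing: within a line, the deviations of same-numbered libraries from their group means correlated at 0.106 to 0.486, so a replicate block was fitted as an alternative. In HT29, mock replicate 2 with ERβ replicate 3 correlated at 0.209 and mock 3 with ERβ 2 at 0.145. The same numbers 2 and 3 correlated at 0.191 and 0.199, so pairing by these numbers was not shown there. Other alternatives changed the pseudocount, filter, bin grid, scaling, input correction and libraries.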

Additional observations from a re-analysis of the deposited data

How the results depend on the processing

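The counts below are over the 19 tested bins, 8 of them listed in 1 group alone, except that 15 bins were tested at a minimum mean of 1.5, 4 of them listed in 1 group, and 20 without a filter, 9 of them listed in 1 group. With the bins moved by 100 bp, 20 were tested as well, 5 of them listed in 1 group. No bin was called for ERβ against mock in HT29 under any alternative. For SW480 ERβ against mock, the 7 calls became 0 when all bins of chromosomes 1, 5, 17 and 21 were tested without a filter, 12 with signal divided by the input ratio, 11 with the replicate block and 3 to 13 when each library was left out in turn. Over all bins tested these fits called 86, 10759 and 10476 higher, and 2850 to 14667 with a library left out. For SW480 against HT29 in mock cells, the 4 calls became 2 at a minimum mean of 1.5, 0 without a filter, 11 with centred libraries, 2 with the replicate block and 1 to 5 with a library left out. At the minimum mean of 1.5, 967 of 10601 bins were called higher and 3166 lower. The next 3 fits called 987, 5670 and 1535 bins higher and 965, 4960 and 5539 lower. With a library left out, 1292 to 2942 were higher and 4203 to 7805 lower. In ERβ cells the 9 calls became 0 without a filter, 15 with centred libraries, 4 with the replicate block and 6 to 12 with a library left out. Over all bins tested these fits called 1136, 6216 and 4274 higher and 724, 5913 and 1419 lower. With a library left out, 4487 to 9360 were higher and 1556 to 2345 lower. For the difference between ERβ effects, the 3 calls became 1 at a minimum mean of 1.5, 0 without a filter, 1 with centred libraries, 5 with input subtracted, 8 with the input ratio, 11 with the replicate block and 1 to 6 with a library left out. All 3 had been listed in 1 group alone. Among the 11 bins listed in more groups the counts were 0, 0, 0, 2, 4 and 7 in that order, and 0 to 2 with a library left out. Over all bins tested, 844 of 10601, 44, 263, 6162, 5702 and 10333 were called higher, and 585 to 6271 with a library left out. Without replicate 1 of both HT29 groups, an alternative chosen after seeing the data, 5 of the 19 were called, against 3285 higher over all tested bins. Without a filter 2802306 bins were tested, and the p-values were adjusted over all of them. Otherwise the cause was not tested. A group mean of at least 3 listed 8 bins in HT29 mock and 11 in SW480 ERβ, and 6 times input listed 5 in SW480 mock. With a library left out, the listed bins were 9 to 16 in HT29 mock, 9 to 12 in HT29 ERβ, 9 to 10 in SW480 mock and 16 to 19 in SW480 ERβ. At the leading bins of the 4 sites listed in 3 or 4 groups, 330 of 376 values under an alternative kept their side of the threshold, 24 lost a call, 22 gained one and no called value changed sign, while 18 of the 330, none of them called, did. Between the lines, same-numbered libraries correlated at -0.0550 to 0.0339, so the block there joined libraries by number alone, and under it the differences at the MIR3142HG promoter had adjusted p-values of 0.0837 in mock and 0.0532 in ERβ cells. The block changed no other call at the leading bins of the 4 sites tested than those given. Depth cannot be read from the tracks, and 3 libraries a group limit what can be called.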
